A study of Rattus norvegicus with 56 samples.

Results

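The miRNAs described here are 7 that are known for being enriched in neurons: rno-miR-9a-5p, rno-miR-124-5p, rno-miR-128-1-5p, rno-miR-129-5p, rno-miR-137-5p, rno-miR-153-5p and rno-miR-218a-5p. They were chosen by name, and all 7 were among the 367 mature miRNAs in the count table. Small RNA was sequenced from the hippocampus of 28 rats given a traumatic brain injury (TBI) and 28 rats given sham surgery, with 4 rats of each kind at each of 7 intervals after surgery, namely 24 h, 2 w, then 1, 2, 3 and 6 months (m), and 1 y. The injury was fluid percussion (FPI), in which a pulse of fluid pressed on the exposed dura produces mixed focal and diffuse damage, and sham rats underwent the surgery alone. The strain, sex and age of the rats are not given in the sources used here, and the rats carried no label for a genotype, a drug or a hemisphere. Each library is 1 rat by its label, and the labels pair no TBI rat with a sham rat. A number in the titles recurs at every interval. Before 1 y it is shared by libraries of the same group, and at 1 y by 1 sham and 1 TBI library each. What this number denotes is not stated. Apart from it, the titles of 1 sham library at 3 m and 1 sham library at 1 y differ only by a letter, whose meaning is not given either.

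A mature miRNA is a short RNA, cut from a hairpin, that guides the Argonaute protein to messenger RNAs matching its seed, bases 2 to 8, and lowers their output. miR-9 steers neural progenitors toward neurons, miR-124 is among the most neuron-specific miRNAs of the brain and represses non-neuronal transcripts, and miR-128 restrains neuronal excitability. miR-129 limits a dendritic potassium channel, miR-137 acts on synapse and dendrite development, miR-153 targets proteins of synaptic vesicle release, and miR-218 is a neuronal miRNA carried in introns of Slit genes. Because these miRNAs are enriched in neurons, their share of a tissue's small RNA may be read as a rough guide to neuronal content. In bulk tissue, however, fewer neurons and less miRNA per neuron cannot be told apart. Whether the share follows the number of neurons was not tested here.

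Each hairpin yields a 5p and a 3p arm. For miR-9, miR-129 and miR-218 the arm counted here is the one usually studied as the guide, whereas for miR-124, miR-128, miR-137 and miR-153 the guide is usually the 3p arm, which was not analysed here. Levels of these 4 miRNAs therefore refer to the less abundant arm. The count table as a whole names 309 of its 367 miRNAs as 5p arms and 5 as 3p arms, so every rank and every share of counts given here is among miRNAs that are nearly all 5p arms. Of the 13 other arms and paralogues of the 7 miRNAs that were looked for, 2 were in the table, rno-miR-9b-5p and rno-miR-128-2-5p.

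The mature sequences of 6 of the 7 miRNAs were matched by name in RefSeq (GRCr8), and they are shown because the seed and the base composition bear on the results that follow. The seed is in capitals.
rno-miR-9a-5p: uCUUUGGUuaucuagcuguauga
rno-miR-218a-5p: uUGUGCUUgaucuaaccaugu
rno-miR-129-5p: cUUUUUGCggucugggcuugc
rno-miR-137-5p: aCGGGUAUucuuggguggauaa
rno-miR-153-5p: gUCAUUUUugugauguugcagcu
rno-miR-128-1-5p: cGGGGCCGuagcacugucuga

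The seeds of these 6 miRNAs all differed, so the members share a tissue and not a target site. Among the rat mature miRNAs with a sequence in RefSeq, only rno-miR-128-2-5p shared a seed with any of them, that of rno-miR-128-1-5p. The search did not reach miRNAs without such a sequence, and 331 of the 367 in the count table had one. Base composition ranged widely: GC content was 34.8% in rno-miR-9a-5p, 38.1% in rno-miR-218a-5p, 39.1% in rno-miR-153-5p, 45.5% in rno-miR-137-5p, 57.1% in rno-miR-129-5p and 66.7% in rno-miR-128-1-5p. The 6 miRNAs come from 10 hairpin genes. rno-miR-9a-5p has 3 identical copies, Mir9-1 (GRCr8, chr2:175974986-175975008, plus strand), Mir9-2 (chr2:15933307-15933329, plus strand, within the host transcript Mir9-2hg) and Mir9-3 (chr1:142849415-142849437, plus strand). rno-miR-218a-5p has 2 copies, Mir218-1 within Slit2 (chr14:66922413-66922433, minus strand) and Mir218-2 within Slit3 (chr10:20572547-20572567, plus strand), genes for axon guidance ligands. rno-miR-129-5p also has 2 copies, Mir129-1 (chr4:58589716-58589736, plus strand) and Mir129-2 (chr3:100657448-100657468, minus strand), neither within a protein-coding gene. Mir137 (chr2:209165731-209165752, plus strand) lies outside protein-coding genes, Mir153 (chr6:144306607-144306629, plus strand) lies within Ptprn2, and Mir128-1 (chr13:42251898-42251918, plus strand) lies within R3hdm1. Reads of identical copies cannot be assigned to one gene, so each level is the sum over the copies.

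The depth of the libraries set how far each member could be read. Total counts ran from 2083604 to 12468979 in 55 libraries, while TBI rat 1 at 2 m had 69628. Levels are given as CPM, the read count set relative to the library size after TMM normalization. Relative to the total count alone, 3 counts correspond to 43.1 CPM in TBI rat 1 at 2 m, against 0.241 CPM in the deepest library. After TMM normalization, the scale of the intervals that follow, 3 counts correspond to 34.4 CPM in the library of TBI rat 1 at 2 m. Its 5 reads of rno-miR-137-5p, 3 of rno-miR-128-1-5p and 1 of rno-miR-153-5p gave exact Poisson 95% intervals of 18.6 to 134 CPM, 7.1 to 101 CPM and 0.291 to 64 CPM, which cover counting error only. All other libraries held at least 20 reads of each member.

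The 7 miRNAs differed in level by more than 4 orders of magnitude. rno-miR-9a-5p was the most abundant of the 244 miRNAs tested over all 56 libraries, with a mean of 195384 CPM (116683 to 289706) and 19.39% of all counts (13.93% to 25.12%). rno-miR-218a-5p ranked 6th at 38559 CPM (3.845% of counts), and rno-miR-129-5p ranked 20th at 9728 CPM (0.9725% of counts). These 3 are the members counted on their usual guide arm.

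The 4 members counted on the other arm were far lower. rno-miR-124-5p averaged 214 CPM (rank 99), rno-miR-137-5p 17.2 CPM (rank 171), rno-miR-153-5p 16.5 CPM (rank 172) and rno-miR-128-1-5p 13.3 CPM (rank 177). The order rno-miR-9a-5p, rno-miR-218a-5p, rno-miR-129-5p, rno-miR-124-5p, rno-miR-137-5p held in 56 of 56 libraries. rno-miR-137-5p exceeded rno-miR-153-5p in 32 of 56 libraries, so these neighbours did not differ beyond their spread, and rno-miR-153-5p exceeded rno-miR-128-1-5p in 46 of 56. Mature miRNAs are of nearly equal length, so no length correction was applied, but adapters are ligated to some sequences more readily than to others and the order is one of read counts.

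**Figure D1:**
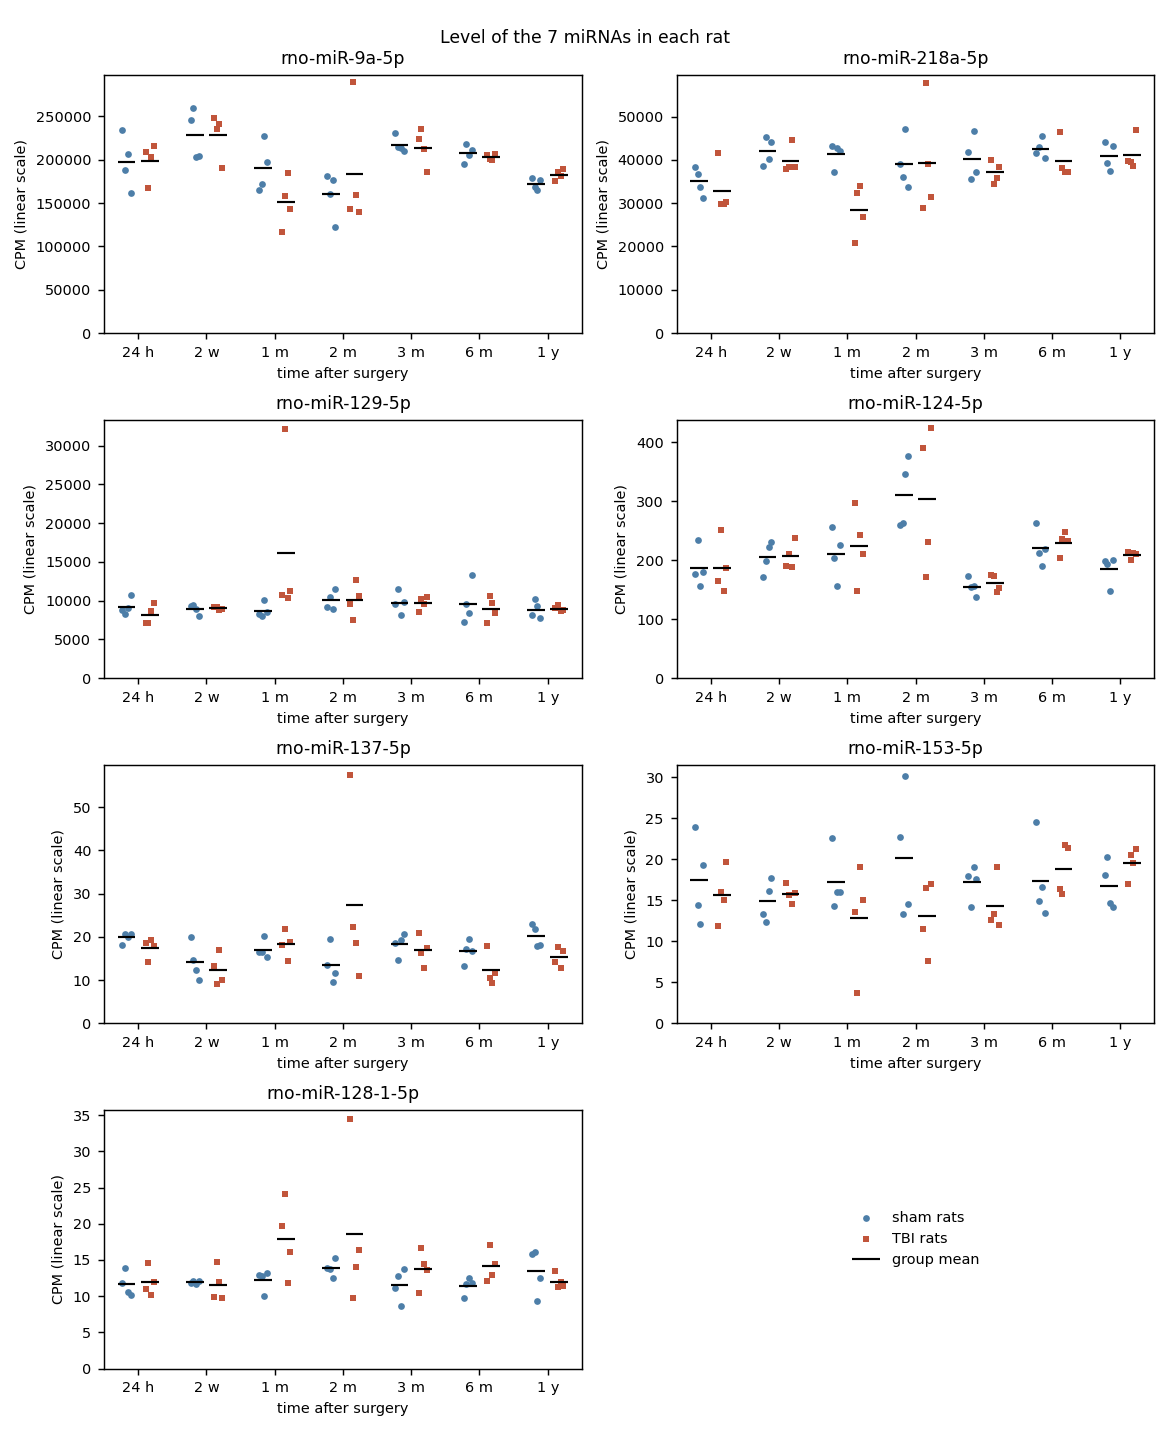
Level of each miRNA (CPM, linear axis from 0) in every rat by time after surgery, with sham rats as circles, TBI rats as squares and a bar at each group mean (n = 4). Sham and TBI rats overlapped in most panels and intervals, TBI rat 2 at 1 m stood at 32108 CPM of rno-miR-129-5p, and TBI rat 1 at 2 m, the shallow library, stood highest for rno-miR-137-5p and rno-miR-128-1-5p.

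Together the 7 miRNAs took a median of 24.38% of all miRNA counts in the table, from 18.2% to 30.81% over the 56 libraries. At 24 h the mean share was 24.04% ± 2.39 (SD, n = 4) in sham rats and 24.47% ± 1.94 after TBI. At 2 w it was 26.42% ± 0.841 and 26.75% ± 1.88. These pairs of means lay closer together than the spread between rats.

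At 1 m the shares parted, with 25.15% ± 1.3 in sham rats (23.31% to 26.15%) and 20.35% ± 2.39 after TBI (18.2% to 23.77%). TBI rats 1, 2 and 4 lay between 18.2% and 19.79%, below every sham rat, while TBI rat 3 at 23.77% lay within the sham range. From 2 m onward the means were again close. At 2 m they were 23.45% ± 3.1 in sham rats and 23.4% ± 5.13 after TBI, and at 3 m 24.86% ± 0.802 and 24.89% ± 0.597. By 6 m sham rats had 25.48% ± 1.07 and TBI rats 24.81% ± 0.908, and after 1 y the means were 22.23% ± 1 and 23.05% ± 0.819. The share was dominated by rno-miR-9a-5p, and the other 6 miRNAs together held between 4.198% (TBI, 24 h) and 5.532% (sham, 2 m) as group means. A share falls when other miRNAs gain reads, and it is given here without a test.

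**Figure D2:**
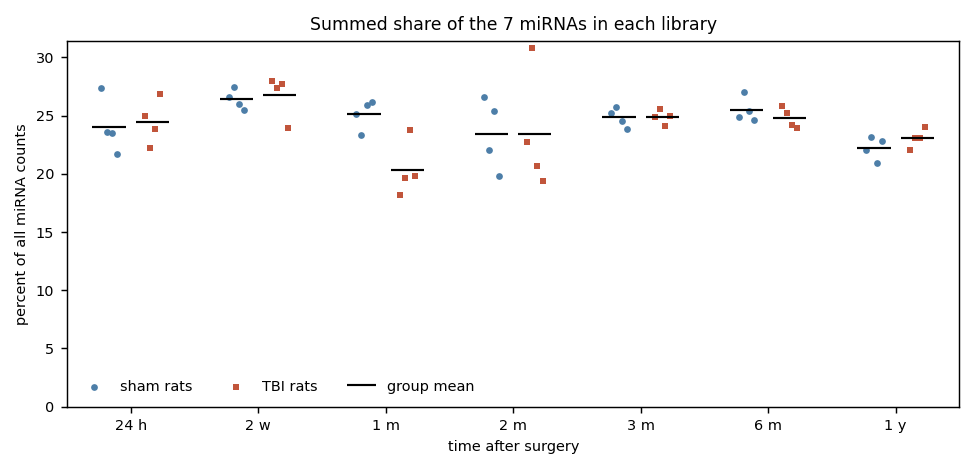
Summed share of the 7 miRNAs in all miRNA counts (percent, axis from 0) in each library by time after surgery, with circles for sham rats, squares for TBI rats and bars at group means (n = 4). The share stayed between 18.2% and 30.81%, and 3 of the 4 TBI rats at 1 m lay below all sham rats of that interval.

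The first comparison asked whether the injury changed the level of any of the 7 miRNAs at a given interval. It did so for none at an adjusted p under 0.05 in edgeR's quasi-likelihood test, nor in edgeR's likelihood ratio test or DESeq2's Wald test. Over the 7 members and 7 intervals, 4 of 49 tests had an unadjusted p under 0.05, and the lowest adjusted p was 0.201. Among all miRNAs tested the share with an unadjusted p under 0.05 ran from 4.91% at 6 m to 17.5% at 1 m. At 1 m, 2 of the 7 members were higher and 1 lower at that threshold, and at 1 y 1 of 7 was lower (background 9.78%). No member met it at the other 5 intervals. Whether the members differed from the background at 1 m was not tested. Of the log2 fold changes 46 of 49 were within 0.5 of 0, a count not made over all miRNAs. Among all miRNAs tested the percentage called at the adjusted threshold was 1.72% at 24 h, 0.417% at 1 m and 0% at each of the other 5 intervals, so few miRNAs of any kind passed.

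**Figure D3:**
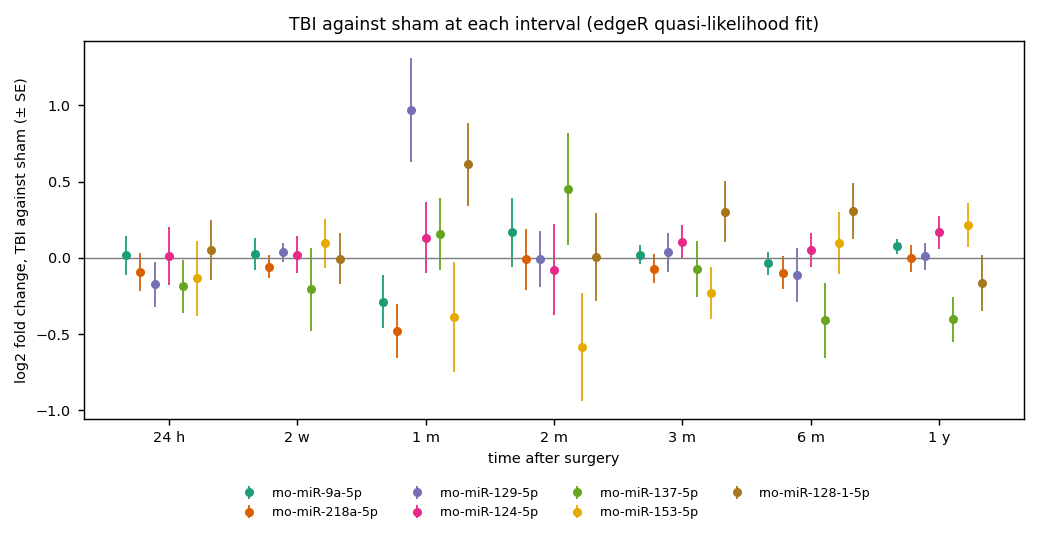
Log2 fold change of TBI against sham (y axis, ± SE of the quasi-likelihood fit, 4 rats a group) for each miRNA at each interval (x axis), with 0 marked. Values outside 0.5 of 0 were those of rno-miR-129-5p (0.97) and rno-miR-128-1-5p (0.61) at 1 m and rno-miR-153-5p at 2 m (-0.59).

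At 24 h no member had an unadjusted p under 0.05 (background 5.15% of 233 miRNAs), and no member separated the TBI rats from the sham rats (background 4.72%). The lowest p was that of rno-miR-129-5p, the repressor of a dendritic potassium channel. It stood at 8809, 8350, 9075 and 10688 CPM in sham rats and at 7071, 7160, 8686 and 9705 CPM after TBI, overlapping ranges with a log2 fold change of -0.17 (SE 0.15, edgeR quasi-likelihood adjusted p = 0.981). rno-miR-9a-5p averaged 197510 CPM ± 30553 in sham rats and 199053 CPM ± 21604 after TBI (SD, n = 4), and rno-miR-124-5p 187 CPM in both groups. The median log2 fold change was -0.09 over the 7 members and -0.02 over all miRNAs tested.

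At 2 w again no member had an unadjusted p under 0.05 (background 9.25%) or separated the groups (background 6.61%). rno-miR-218a-5p had the lowest p, with 38616, 45188, 40283 and 44168 CPM in sham rats against 37989, 38435, 44635 and 38327 CPM after TBI. The sham and TBI ranges overlapped, and the log2 fold change was -0.06 (SE 0.075, edgeR quasi-likelihood adjusted p = 0.804). rno-miR-9a-5p stood at 228346 CPM ± 29215 in sham rats and 228773 CPM ± 26162 after TBI, its highest mean in both groups.

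At 1 m, 3 of the 7 members had an unadjusted p under 0.05 (background 17.5%, 42 of 240 miRNAs) and 2 separated the groups (background 10%). rno-miR-129-5p was the higher after injury: sham rats had 8296, 8002, 10070.2 and 8493 CPM, and TBI rats 10728, 32108, 10370.1 and 11194 CPM. All 4 TBI rats lay above all sham rats, but 3 of them by little, and rat 2 alone stood at nearly 3 times the others. The log2 fold change was 0.97 (SE 0.34, edgeR quasi-likelihood p = 0.0131, adjusted p = 0.201), and an exact permutation test (two-sided) returned p = 0.0286, the smallest that 4 rats against 4 allow. Without TBI rat 2 the log2 fold change was 0.31 (edgeR quasi-likelihood adjusted p = 0.221).

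rno-miR-218a-5p, of the Slit introns, was the lower after injury at 1 m. Sham rats had 43167, 37265, 42636 and 41969.8 CPM, and TBI rats had 20818, 32293, 33991 and 26816 CPM. The groups did not overlap, with the lowest value in TBI rat 1, a log2 fold change of -0.48 (SE 0.18, edgeR quasi-likelihood p = 0.0174, adjusted p = 0.232) and an exact permutation p of 0.0286. Without TBI rat 2 it was -0.60 with an adjusted p of 0.0441 in edgeR's quasi-likelihood test, past the threshold.

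rno-miR-128-1-5p at 1 m stood at 12.9, 12.8, 10.1 and 13.2 CPM in sham rats and at 19.7, 24.1, 11.8 and 16.1 CPM after TBI. TBI rat 3 lay within the sham range and the other 3 above it, with a log2 fold change of 0.61 (SE 0.27, edgeR quasi-likelihood p = 0.0424, adjusted p = 0.255) and an exact permutation p of 0.114. The remaining members gave values of -0.29 for rno-miR-9a-5p (SE 0.18), -0.39 for rno-miR-153-5p (SE 0.36), 0.13 for rno-miR-124-5p (SE 0.23) and 0.15 for rno-miR-137-5p (SE 0.24). TBI rat 2, highest for rno-miR-129-5p, was lowest of all 56 libraries for rno-miR-153-5p at 3.76 CPM (22 reads).

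In a joint fit of all 56 libraries, which estimates the spread from all 14 groups, 3 members passed the adjusted threshold at 1 m, with log2 fold changes of 0.89 for rno-miR-129-5p (adjusted p = 0.00506), -0.53 for rno-miR-218a-5p (adjusted p = 0.00999) and 0.55 for rno-miR-128-1-5p (adjusted p = 0.0421). The same fit called 15.2% of all miRNAs at 1 m, against 0.417% when the 8 libraries of that interval were fitted alone. The joint fit also changes the scaling and the set of miRNAs tested (244 against 240), and which of these differences moved the calls was not tested.

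Base composition was examined beside these values. At 1 m the estimates of the 2 members richest in GC among the 6 with a sequence, rno-miR-128-1-5p and rno-miR-129-5p, were above 0 and those of the 3 poorest, rno-miR-9a-5p, rno-miR-218a-5p and rno-miR-153-5p, were below 0, none of them past the adjusted threshold in the fit of that interval. Across the 219 of 240 tested miRNAs with a sequence, the log2 fold change rose with GC content at 1 m (r = 0.424, rho = 0.455, 0.186 per 10 points of GC), a description across miRNAs that share the same 8 libraries. At the other 6 intervals r lay between -0.199 and 0.00404. Per library, the slope of level on GC content, measured without the 7 members, was 0.238, 0.274 and 0.193 log2 units per 10 points in TBI rats 1, 2 and 4 at 1 m, ranks 2, 1 and 4 of 56, and -0.000777 in TBI rat 3. The sham rats of 1 m had slopes from -0.0331 to -0.0016.

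A step added after the data were seen removed a GC slope from every library. This slope was measured over 140 miRNAs with the abundant members included, and was 0.246, 0.287 and 0.197 in TBI rats 1, 2 and 4 at 1 m. The values at 1 m were then 0.19 for rno-miR-128-1-5p (adjusted p = 0.771), -0.30 for rno-miR-218a-5p (adjusted p = 0.477) and 0.74 for rno-miR-129-5p (adjusted p = 0.457) in edgeR's quasi-likelihood test. Their directions stayed the same, and rno-miR-128-1-5p moved by the most, from 0.61 to 0.19. TBI rat 3, whose slope was near 0, had 33991 CPM of rno-miR-218a-5p, below all sham rats, and 11.8 CPM of rno-miR-128-1-5p, within them. Its 10370.1 CPM of rno-miR-129-5p lay above all sham rats, the highest of which had 10070.2 CPM. This is 1 rat, and the part of base composition in the values at 1 m was not tested.

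Markers of some other cells also moved at 1 m. The 5 miRNAs listed for leukocytes and microglia summed to between 1555 and 1741 CPM in sham rats and between 2609 and 3332 CPM after TBI, with a median log2 fold change of 0.89 over the 4 tested, 3 of them higher at an unadjusted p under 0.05 and 1 past the adjusted threshold, and rno-miR-223-5p, the granulocyte marker, had a median of 3 reads and was at 0 in 5 of 56 libraries. The 2 red blood cell miRNAs summed to 47 to 340 CPM in sham rats and 65 to 101 CPM after TBI, with a median log2 fold change of -1.36 and an unadjusted p under 0.05 for 2 of 2, both lower. The 3 oligodendrocyte miRNAs summed to 1642 to 2857 CPM (mean 2104) and 1930 to 2485 CPM (mean 2197), so their sum was not lower after TBI. rno-miR-3065-5p, 1 of the 3, had a median of 10 reads and was at 0 in 2 of 56 libraries. The median log2 fold change was -0.95, with 2 of 3 lower at an unadjusted p under 0.05 and 1 of 3 higher without reaching it. Of the vessel wall miRNAs 1 of 3 was lower at that threshold. The 4 choroid plexus miRNAs had 2 higher and 2 lower values, a median log2 fold change of -0.03 and 0 at that threshold. No red blood cell, oligodendrocyte, vessel wall or choroid plexus miRNA passed the adjusted threshold. The part of these in the values of the 7 members was not tested. The leukocyte list includes miRNAs that the authors had reported as changed after TBI in these rats, so its rise was partly known in advance. Of the 10 other neuron-enriched miRNAs listed, 8 had reads in all 56 libraries. At 1 m 1 of the 10 was higher and 1 lower at an unadjusted p under 0.05, and 0 of 10 passed the adjusted threshold. The median log2 fold change of the 10 was 0.13, beside 0.13 over the 7 members and 0.02 over all miRNAs tested.

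At 2 m no member had an unadjusted p under 0.05 (background 7.2%) or separated the groups (background 5.51%). rno-miR-153-5p, whose main arm targets the release machinery of synapses, had 22.7, 13.3, 30.2 and 14.5 CPM in sham rats and 11.5, 16.5, 7.56 and 16.9 CPM after TBI, the first of these being the shallow library. Its log2 fold change was -0.59 (SE 0.36, edgeR quasi-likelihood adjusted p = 0.704), and -0.59 without the shallow library. TBI rat 2 held 289706 CPM of rno-miR-9a-5p and 57862 CPM of rno-miR-218a-5p, the highest values of both in the study, while the other 3 TBI rats had 140222 to 159324 CPM of rno-miR-9a-5p.

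At 3 m (background 5.45% at an unadjusted p under 0.05 and 3.64% without overlap) no member met either criterion. rno-miR-128-1-5p had 11.1, 12.8, 8.71 and 13.8 CPM in sham rats and 10.5, 16.7, 14.4 and 13.6 CPM after TBI, overlapping ranges with a log2 fold change of 0.30 (SE 0.2, edgeR quasi-likelihood adjusted p = 0.592). At 6 m (background 4.91% and 1.34%) no member met either criterion. rno-miR-137-5p had 13.4, 17.1, 19.5 and 16.7 CPM in sham rats and 17.9, 10.5, 9.23 and 11.7 CPM after TBI, where rat 1 alone lay within the sham range, with a log2 fold change of -0.41 (SE 0.25, edgeR quasi-likelihood adjusted p = 0.961).

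At 1 y, 1 of 7 members had an unadjusted p under 0.05 (background 9.78%) and the same member separated the groups (background 4.89%). rno-miR-137-5p, from a hairpin studied for its part in synapse development, had 23, 21.8, 18 and 18 CPM in sham rats and 14.1, 17.7, 12.8 and 16.7 CPM after TBI. Every TBI rat lay below every sham rat, narrowly at the nearest, and each value rested on 68 to 120 reads. The log2 fold change was -0.40 (SE 0.15, edgeR quasi-likelihood p = 0.0214, adjusted p = 0.431), with an exact permutation p of 0.0286. rno-miR-9a-5p stood at 172200 CPM ± 6657 in sham rats and 182778 CPM ± 6229 after TBI, and rno-miR-124-5p at 185 CPM ± 25.1 and 209 CPM ± 6.21 (SD, n = 4), differences of 0.07 (SE 0.048) and 0.17 (SE 0.11) on the log2 scale that did not pass the test.

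The second comparison pooled the 7 intervals in a fit with a term for each interval, to ask for an average effect of injury over them. A change at 1 interval alone can move this average, so the fit does not test whether an effect lasted. No member passed the adjusted threshold (background 4.51% of 244 miRNAs), and 1 had an unadjusted p under 0.05 (background 14.8%). That member was rno-miR-218a-5p, with a log2 fold change of -0.13 (SE 0.055, 95% interval -0.24 to -0.02, edgeR quasi-likelihood adjusted p = 0.281), and its fitted value was below 0 at 7 of 7 intervals. The mean level was lower after TBI at 5 of them, since at 2 m it was 39338 CPM after TBI and 38937 CPM in sham rats, and at 1 y 41158 and 40966 CPM. Leaving out TBI rat 2 at 2 m, the rat with the highest level, brought it to -0.16 with an adjusted p of 0.05, just past the threshold, and leaving out the 1 m libraries, a choice made after the data were seen, brought it to -0.07 (adjusted p = 0.674).

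The intervals of the other members all included 0 and bounded the change from 28 rats against 28. On the log2 scale they were -0.12 to 0.10 for rno-miR-9a-5p, -0.09 to 0.18 for rno-miR-124-5p, -0.08 to 0.26 for rno-miR-129-5p and -0.01 to 0.30 for rno-miR-128-1-5p. The intervals for rno-miR-137-5p (-0.30 to 0.07) and rno-miR-153-5p (-0.35 to 0.07) were the widest. The estimate for rno-miR-129-5p was 0.09 with all rats and -0.02 without TBI rat 2 at 1 m. In the same fit 4 of 5 leukocyte and microglia miRNAs passed the adjusted threshold, all 4 higher after TBI, against 0 of 10 other neuron-enriched miRNAs.

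Whether the effect of injury differed between intervals was tested with 6 interaction terms over all 56 libraries. No member passed the adjusted threshold (background 2.87%), and 1 had an unadjusted p under 0.05 (background 14.3%). It was rno-miR-129-5p (F = 3.04, edgeR quasi-likelihood adjusted p = 0.191), the miRNA whose TBI values at 1 m included the 32108 CPM of rat 2. For rno-miR-124-5p the interaction gave an adjusted p of 0.999.

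The third comparison followed the 7 miRNAs over the year in sham rats, in which time after surgery runs together with the age of the rats. 2 of 7 members changed across the intervals (background 27.1% of 240 miRNAs), rno-miR-124-5p (F = 8.08, edgeR quasi-likelihood adjusted p = 0.00197) and rno-miR-9a-5p (F = 4.82, adjusted p = 0.0153). This count is near the share over all miRNAs tested and is not particular to the members. The sham means of rno-miR-124-5p were 187, 206 and 211 CPM at 24 h, 2 w and 1 m, then 312 CPM at 2 m, and 156, 221 and 185 CPM from 3 m to 1 y. The lowest sham rat at 2 m, with 259.8 CPM, was exceeded among the sham rats of other intervals only by 1 rat at 6 m with 263 CPM.

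The sham means of rno-miR-9a-5p were 197510, 228346 and 190811 CPM at 24 h, 2 w and 1 m, then 159965 CPM at 2 m, and 217201, 207686 and 172200 CPM from 3 m to 1 y. The lowest mean of this miRNA and the highest of rno-miR-124-5p thus fell in the same interval. Other measures moved across the sham intervals too. The 3 vessel wall miRNAs summed to 1397 to 1938 CPM at 2 m (mean 1671), against means of 1043 to 1356 CPM at the other intervals, and 3 of 4 choroid plexus miRNAs passed the adjusted threshold, with a mean sum of 1397 CPM at 2 m and 11385 CPM at 3 m. The GC slopes of the 4 sham libraries at 2 m were -0.0127, 0.131, -0.0768 and 0.147. The part of these in the course of the members was not tested. TBI rats, which are independent of the sham rats, had rno-miR-124-5p means of 187, 207, 225, 304, 162, 229.998 and 209 CPM over the same intervals, again highest at 2 m and lowest at 3 m. The TBI rats of 2 m were spread widely, with 390, 171, 232 and 424 CPM, the first from 34 reads in the shallow library. For rno-miR-9a-5p the TBI means were 199053, 228773, 150771, 183034, 214135, 203113 and 182778 CPM, highest at 2 w like the sham means. Their lowest was at 1 m and not at 2 m as in sham rats, and the TBI mean at 2 m included rat 2 with 289706 CPM. Sham and TBI rats of an interval share an age and a time of surgery, and possibly the handling of their libraries, which cannot be told apart here.

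In TBI rats 1 of 7 members passed across the intervals (background 25%), rno-miR-129-5p (F = 3.74, edgeR quasi-likelihood adjusted p = 0.0357), and without rat 2 of 1 m, left out after the data were seen, its adjusted p was 0.269. rno-miR-9a-5p had an adjusted p of 0.0516 and rno-miR-124-5p of 0.129 in TBI rats, and for neither was the course shown to differ from that of sham rats (interaction adjusted p = 0.602 and 0.999). From 24 h to 1 y in sham rats no member passed (background 1.67%). The value nearest to a call was rno-miR-218a-5p, with a log2 difference of 0.23 (SE 0.099, edgeR quasi-likelihood adjusted p = 0.222), and rno-miR-9a-5p had -0.20 (SE 0.12, adjusted p = 0.37).

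The last comparison asked whether the 7 miRNAs varied together from rat to rat once the mean of each of the 14 groups was removed. Of the 21 pairs, 9 had a positive r, and 3 passed an adjusted p of 0.05 in a two-sided permutation test (100000 permutations within groups). rno-miR-9a-5p and rno-miR-218a-5p rose and fell together (r = 0.69, p = 8e-05, adjusted p = 0.00168, rho = 0.516 with p = 5.6e-04 and adjusted p = 0.0118), and r was 0.566 without the 2 libraries farthest from the median. This pair also passed when levels were set relative to miRNAs other than the 7 members (r = 0.628, adjusted p = 0.017, permutation test).

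The other 2 pairs ran in opposite directions. rno-miR-9a-5p and rno-miR-124-5p had r = -0.623 (permutation p = 8.5e-04, adjusted p = 0.00892, rho = -0.432 with p = 0.00797 and adjusted p = 0.0418, r = -0.502 without the 2 farthest libraries). rno-miR-129-5p and rno-miR-153-5p had r = -0.648 (permutation p = 0.00619, adjusted p = 0.0433, rho = -0.39 with p = 0.0182 and adjusted p = 0.0765, r = -0.433 without the 2 farthest). Relative to miRNAs other than the members, these 2 values were -0.295 and -0.449 and did not pass (permutation adjusted p = 0.499 and 0.329). On that scale 13 of 21 pairs had a positive r, and the 3 that passed were all positive. Besides rno-miR-9a-5p with rno-miR-218a-5p they were rno-miR-124-5p with rno-miR-128-1-5p (r = 0.566) and with rno-miR-153-5p (r = 0.585), both with a permutation adjusted p of 0.0282, against r = 0.384 and 0.366 under TMM, where neither passed. The points are libraries, which share depth and base composition as well as the tissue.

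The level of 4 of the 7 members was related to the base composition of the library at an unadjusted permutation p under 0.05 (background 20.1%, 49 of 244 miRNAs, a count added after the data were seen). The GC slope of a library, measured without the members and with group means removed, had r = -0.599 with rno-miR-9a-5p (permutation p = 0.00416, adjusted p = 0.0291 over 7 relations, rho = -0.376 with p = 0.0224), -0.522 with rno-miR-153-5p (permutation p = 0.0206, adjusted p = 0.0418, rho = -0.36 with p = 0.0337) and -0.491 with rno-miR-218a-5p (permutation p = 0.0239, adjusted p = 0.0418, rho = -0.365 with p = 0.022). With rno-miR-129-5p it had r = 0.502 (permutation p = 0.0162, adjusted p = 0.0418, rho = 0.389 with p = 0.011). Without the 2 libraries of most extreme slope these values were -0.427, -0.443, -0.295 and 0.408. The miRNAs poor in GC thus had negative values and the GC-rich rno-miR-129-5p a positive one, while rno-miR-128-1-5p had 0.411 (permutation adjusted p = 0.0899), although its rho of 0.359 had an adjusted p of 0.0391, rno-miR-137-5p 0.187 (adjusted p = 0.545) and rno-miR-124-5p 0.0755 (adjusted p = 0.768).

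**Figure D4:**
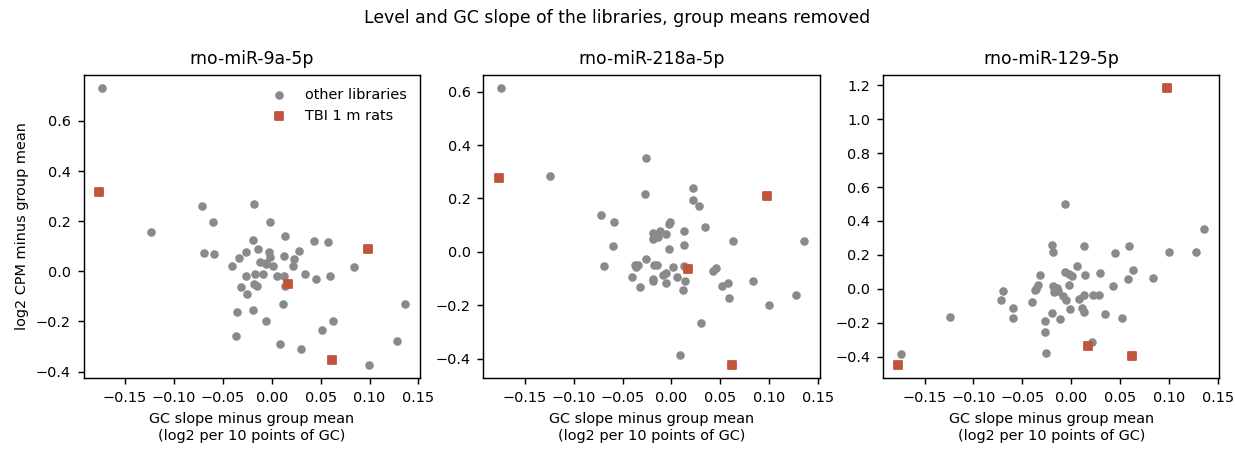
Level of rno-miR-9a-5p, rno-miR-218a-5p and rno-miR-129-5p (log2 CPM minus its group mean, y axes on separate scales) against the GC slope of the library minus its group mean (x axis), 1 point a library, with the 4 TBI rats of 1 m as squares. Points of rno-miR-9a-5p and rno-miR-218a-5p run downward (r = -0.599 and -0.491) and those of rno-miR-129-5p upward (r = 0.502), with a single high point, TBI rat 2 of 1 m.

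Among the 237 other miRNAs the one whose level followed each of the 3 abundant members most closely, with group means removed, was rno-miR-872-5p for rno-miR-9a-5p (r = 0.759), rno-miR-7a-5p for rno-miR-218a-5p (r = 0.696) and rno-miR-134-5p for rno-miR-129-5p (r = 0.743), over 56 libraries. Each is the highest of 237 values and is given without a test. The GC content of these partners was 38.1%, 34.8% and 59.1%, against 34.8%, 38.1% and 57.1% in the members. The part of base composition in these values was not tested.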

How the data were processed

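Small RNA of 56 rat hippocampi was sequenced after preparation with the NEBNext small RNA kit, and per the labels reads were demultiplexed with bcl2fastq 2.20.0.422. The authors used miRDeep2 to remove adapters and to assign reads to the mature miRNAs of miRBase. The deposited values are the resulting raw counts, with no normalization. All 56 columns carry the name of their sample. How reads fitting several miRNAs were divided is not given in the sources used here, and 34 miRNAs had no reads.

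Groups came from the labels for treatment and time. The 7 members, the lists and the rule for named miRNAs (all members, with full statistics at an interval for those with an unadjusted p under 0.05, otherwise the lowest p, and the nearest miRNA of the 3 most abundant members) were chosen with earlier results of these data known. edgeR 4.0.16 in R 4.3.3 was run on the whole table, with filterByExpr, TMM, quasi-likelihood tests, and p-values adjusted by Benjamini-Hochberg with a threshold of 0.05. SE is the log2 fold change over the square root of F, and 95% intervals use 1.96 SE. Each interval was fitted on its own 8 libraries, and CPM values come from a TMM scaling of all 56. Log2 CPM used a prior count of 2. Exact permutation tests used 35 splits, counting a split and its mirror image once. Library GC slopes used 137 miRNAs other than the members with a mean log2 CPM over 5. The slopes removed in the fits used 140 miRNAs, with the members over that level included. The steps were tested on simulated data. Alternatives were DESeq2 1.42.0 and its size factors, total count, total count without the members, 2 filters, the likelihood ratio test, a joint fit, the number in the titles as a block at 1 y and leaving out each rat. Nothing states that rats came from separate litters or runs, so p-values measure the spread between these rats. Replicates were compared pairwise for duplicated libraries and all 84 pairs differed by more than sampling noise (chi-square at least 18.7 per degree of freedom). Tables and figures used Python 3.11.15, pandas 2.3.3 and matplotlib 3.10.9.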

Additional observations from a re-analysis of the deposited data

Results flagged for a closer look

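In 8 of 98 groups of 4 rats, 1 rat lay farther from the rest than Dixon's critical value at 95% allows for 4 values. Chance gives about 1 in 20 such groups. rno-miR-9a-5p stood at 289706 CPM in TBI rat 2 at 2 m against 140222 to 159324 CPM in the other 3 rats. rno-miR-129-5p stood at 32108 CPM in TBI rat 2 at 1 m against 10370.1 to 11194 CPM. rno-miR-218a-5p had 1 high rat in 4 TBI groups: 41603 CPM at 24 h (others 29833 to 30225), 44635 CPM at 2 w (others 37989 to 38435), 46542 CPM at 6 m (others 37198 to 38204) and 46851 CPM at 1 y (others 38634 to 39732). These were different rats, each in its own group. rno-miR-124-5p was low in sham rat 3 at 1 y with 148 CPM (others 194 to 201), and rno-miR-128-1-5p was low in sham rat 3 at 1 m with 10.1 CPM (others 12.8 to 13.2, from 78 reads in the low rat).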

How the results depend on the processing

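The count of members called, 0 at each of the 7 intervals, over all intervals, for the interaction and for sham 1 y against 24 h, was 0 under the other scalings, filters and tests, with exceptions. At 1 m the joint fit of 56 libraries called 3, with 0.55 for rno-miR-128-1-5p, 0.89 for rno-miR-129-5p and -0.53 for rno-miR-218a-5p, and leaving out 1 rat called 0 to 1, with ranges of 0.39 to 0.68, 0.31 to 1.13 and -0.65 to -0.36 for the same miRNAs. Over all intervals leaving out 1 rat called 0 to 1, with -0.16 to -0.11 for rno-miR-218a-5p and -0.0158 to 0.114 for rno-miR-129-5p. rno-miR-9a-5p over all intervals, -0.01, was 0.0024 with at least 10 counts in every library and 0.0311 without the 1 m libraries, where rno-miR-129-5p was -0.0486. Across sham intervals 2 members were called, 2 to 3 when 1 rat was left out (rno-miR-137-5p was the third), 1 in TBI rats, 0 in TBI rats without rat 2 of 1 m, and 1 with the GC slope removed, a fit without rno-miR-124-5p, for which no sequence was matched. For sham 1 y against 24 h, rno-miR-137-5p (0.02) was -0.0129 without the members in the total count and -0.0136 with at least 10 counts in every library, and rno-miR-129-5p (-0.06) was 0.0313 with the GC slope removed. Leaving out 1 rat there gave -0.076 to 0.073 for rno-miR-137-5p, -0.22 to 0.12 for rno-miR-153-5p, -0.10 to 0.11 for rno-miR-124-5p and -0.189 to 0.0371 for rno-miR-129-5p. Without the counts of rno-miR-9a-5p in the denominator, the share of the other 6 members was 5.525% (sham) and 5.269% (TBI) at 24 h, 6.2% and 6.073% at 2 w, 6.584% and 5.458% at 1 m, 6.754% and 6.213% at 2 m, 5.852% and 5.658% at 3 m, 6.454% and 6.038% at 6 m, and 6.051% and 6.08% at 1 y, higher by construction. Without the shallow library 5 pairs of members passed. The number in the titles at 1 y, used as a replicate block, gave -0.41 for rno-miR-137-5p (edgeR quasi-likelihood adjusted p = 0.59) and changed no call. It is shared by 1 sham and 1 TBI library, its meaning is not stated, and neither is a pairing of rats or a batch. The cause of these shifts was not tested. Depth limits rno-miR-137-5p, rno-miR-153-5p and rno-miR-128-1-5p, above all in the shallow library.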
